A study of Mus musculus with 6 samples.

Results

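Protocadherins are the largest family of cadherin-type adhesion proteins, and 71 of the 24214 gene rows in this dataset carry a protocadherin symbol. They were chosen by symbol alone, as Pcdh followed by a number or by the letter of a gene cluster, and not by any measured value. Of these, 59 belonged to the alpha, beta and gamma clusters on chromosome 18 (15 alpha, 22 beta and 22 gamma rows), which lay side by side between positions 36930285 and 37841872 of the coordinates deposited, a span of 912 kb. The other 12 were non-clustered genes (Pcdh1, Pcdh7, Pcdh8, Pcdh9, Pcdh10, Pcdh11x, Pcdh12, Pcdh15, Pcdh17, Pcdh18, Pcdh19 and Pcdh20), of which Pcdh1 and Pcdh12 also lie on chromosome 18.

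Clustered protocadherins are best known from neurons, where each cell switches on its own combination of isoforms and the proteins on opposing membranes bind only to like copies. In the alpha and gamma clusters each isoform has its own large variable exon, which encodes the extracellular and membrane-spanning part, and this exon is spliced to a set of small constant exons used by all isoforms of the cluster. Beta genes consist of a single exon and share no constant region. The last isoforms of the alpha and gamma clusters, the C-types, are more alike to each other than to the rest of their cluster. Non-clustered protocadherins are separate genes, of which the delta group acts in cell sorting, migration and actin regulation in embryos and in the nervous system.

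RNA was from 393P, an epithelial murine lung adenocarcinoma (LUAD) cell line labelled as C57BL/6, grown in RPMI-1640 with 10% serum. One group of 3 samples carried an empty vector (393P_vector) and the other group of 3 carried ectopic ZEB1 (393P_ZEB1), a transcriptional repressor that drives epithelial-to-mesenchymal transition (EMT). Both groups were transfectants. The methods of the study describe transfectants as stable and selected with puromycin or G418. How many separately selected populations stand behind each group is not given in the sources used here, so ectopic ZEB1 and any other difference between the transfected lines cannot be told apart. Samples were not stated to come from separate cultures, and p-values then measure only the spread between these samples, which may be technical.

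Total counts ranged from 54442450 to 79158012 per sample, so that 3 counts, the smallest number treated as detected, came to between 0.0379 and 0.0551 CPM, counts taken relative to the size of the library. Zeb1, the gene introduced, was at 21.2, 22.0 and 21.4 CPM in 393P_vector samples and at 54.9, 48.9 and 51.3 CPM in 393P_ZEB1 samples. Its log2 fold change was 1.26 ± 0.10 (SE; edgeR, adjusted p = 6.06e-05). Zeb1 itself lies on chromosome 18, whose other genes were higher by a median of 0.67 as described below, and relative to that median it was at 0.59 (adjusted p = 0.00148). Of 9 epithelial markers, 8 fell (Cdh1 by 4.09 on the log2 scale), and of 10 mesenchymal markers tested, 7 rose and 1 fell. The 7 that rose include Zeb1 itself, whose rise was set by the design. Of 9 markers of lung lineage, 7 were too scarce to test, with Nkx2-1 at a mean of 0.0217 and 0.0476 CPM and Scgb1a1 without a count in any sample. Foxa2, at 37.8 and 41.0 CPM, held most of their summed level, and Ager was at 0.499 and 0.277 CPM. 393P_vector replicate 3, the deepest library, stood apart from the other vector samples, and without it the share of all tested genes that were called higher went from 18.3% to 26.2%, and lower from 19.3% to 26.8%.

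Members were not counted independently of each other, which bears on every clustered value. The shared exons 2, 3 and 4 of the gamma cluster, of 59, 89 and at least 1961 bases, stood in all 22 gamma rows. The alpha rows other than the read-through Pcdha4-g shared 3 exons of 2860 bases in the same way. Reads on these exons were counted in every row of the cluster. The lowest gamma row held between 99.4% and 99.6% as many counts as the median gamma row of its sample, so nearly all gamma rows were close to the same number. In the alpha cluster the lowest row held between 90.0% and 99.2% of the median row. For this reason each cluster is described below both as deposited and with the shared reads counted a single time, by taking the lowest row of the cluster in each sample off every row of it and keeping it as a row of its own. What remains above it is a lower bound on reads of the isoform's own exon if the row holds no reads from other isoforms' exons. How reads matching several isoforms were treated is not given in the sources used here. Taking off the lowest row was chosen after seeing the data.

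Promoter windows for 9 of the 71 members were found in the RefSeq table (build GRCm38.p6), each of 300 bases around an annotated start. All 9 were non-clustered genes. The letters CACCTG, the E-box to which ZEB1 binds, were searched on both strands. They were in 20.2% of all 32851 windows, and in those of 2 of the 9 members, Pcdh7 and Pcdh15. The stretches that hold them are shown because Pcdh7 had the largest rise among the non-clustered members and Pcdh15 did not pass the test. Capitals mark the motif, which in Pcdh7 is its reverse complement.
Pcdh7, chr5:57718101-57718130, plus strand, motif 32 bases after the start: gcgggccgaatgCAGGTGagggaaggcacg
Pcdh15, chr10:73821753-73821782, plus strand, motif 102 bases before the start (-102): tcggggctgtagCACCTGctcctaattggt
A match is a description of the letters in these windows and says nothing of binding. The letters CGCT, on either strand the core of the element found in promoters of clustered protocadherins, were in the windows of 9 of the 9 members and in 61.8% of all windows. As none of the 9 is clustered, no promoter of a clustered gene was searched.

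Protocadherin RNA differed between the groups in most members that could be tested. Most of these members lie on chromosome 18, which was higher as a whole, as described below. A row entered the test if it held enough counts in at least as many samples as one group has, so 55 of the 71 were tested and 16 were not. Of the 55, 36 were higher in 393P_ZEB1 cells and 13 were lower (edgeR quasi-likelihood test, Benjamini-Hochberg adjusted p below 0.05), where 18.3% of all 13892 genes tested were called higher and 19.3% lower, 37.6% in all. Every ZEB1 sample lay above every vector sample in 36 of the 55 and below in 1, which was so for 26.3% and 26.5% of all tested genes. Because 22 of the 36 were gamma rows with nearly the same reads, and all 13 that were lower were alpha rows with nearly the same reads, these counts overstate how many separate measurements lie behind them. The 13 that were lower became 0 when 393P_vector replicate 1 or 2, or 393P_ZEB1 replicate 1 or 3, was left out. They were 9 without 393P_ZEB1 replicate 2. For these fits the share of all genes called was not counted. Without 393P_vector replicate 3, 15 members were lower, where 26.8% of all genes were then lower. With the shared reads counted a single time, 23 members were higher and 3 lower, and 18.4% and 19.0% of 13876 genes tested were. A row could pass the filter through the counts of 1 group alone, and the counts of tested members are therefore a description.

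Chromosome 18 as a whole was higher in 393P_ZEB1 cells. Of the 348 other genes of chromosome 18 that were tested, 64.4% were called higher and 7.47% lower, and their median log2 fold change was 0.67, against -0.02 for all genes tested. Of the 47 clustered members tested as deposited, 30 were higher, or 63.8%, close to that 64.4%, and 27.7% were lower. Values relative to the median of the other chromosome 18 genes are named as such.

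Among the non-clustered members, Pcdh7 had the largest rise and Pcdh1 the highest level per kb. Of 12, 8 were tested, 6 were higher, none was lower and 2 did not pass the test. The median log2 fold change of the 8 was 1.59, and it was 0.73 without a filter on low counts and 0.79 by DESeq2, since scarce members then entered it. The count of 0 lower members is from edgeR's test, and DESeq2 also gave 0. At an unadjusted p below 0.05 it was 1 by either tool, Pcdh19, which was the only tested member of the group with a negative value and was called lower by limma with voom and sample weights (adjusted p = 0.00379). The summed level of all 12 was 192, 181 and 171 CPM in 393P_vector samples and 485, 488 and 479 CPM in 393P_ZEB1 samples.

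Pcdh7 (chromosome 5, 57718021 to 58132240), a delta protocadherin whose cytoplasmic part binds the phosphatase inhibitor SET, was at 28.1, 28.0 and 33.9 CPM in 393P_vector samples and at 245, 252 and 246 CPM in 393P_ZEB1 samples. All 3 ZEB1 samples were far above all vector samples and close to each other. The log2 fold change was 3.04 ± 0.12 (SE), an 8.25-fold rise (adjusted p = 1.73e-06). Per kb of exon Pcdh7 went from 3.30 ± 0.37 to 27.2 ± 0.41 CPM per kb (SD, n = 3), a level close to that of Pcdh1, which led the non-clustered members in both groups.

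Pcdh18 (chromosome 3, 49743296 to 49757316), a delta protocadherin that binds the adaptor Dab1, was at 15.5, 14.3 and 17.7 CPM in 393P_vector samples and 75.9, 67.1 and 66.0 CPM in 393P_ZEB1 samples. The groups did not overlap, and the log2 fold change was 2.14 ± 0.13 (adjusted p = 1.18e-05). Pcdh17, which recruits the WAVE actin regulators to cell contacts in axons, was at 1.08, 0.935 and 0.782 CPM against 4.77, 4.09 and 4.52 CPM, a log2 fold change of 2.26 ± 0.19 (adjusted p = 7.35e-05). It was thus raised by about as much as Pcdh18, from a level per kb that was far lower (0.0980 against 3.06 CPM per kb in 393P_vector cells).

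Pcdh9 was at 1.06, 1.05 and 0.891 CPM in 393P_vector samples and at 2.75, 3.20 and 2.60 CPM in 393P_ZEB1 samples (log2 fold change 1.51 ± 0.19, adjusted p = 0.000584). Pcdh10, a delta protocadherin that binds the WAVE complex subunit Nap1, was scarce in both groups, at 0.265, 0.238 and 0.337 against 0.785, 0.846 and 1.08 CPM. These were 14 to 66 counts per library, and the rise still passed the test (1.67 ± 0.27, adjusted p = 0.00205). In both genes every ZEB1 sample was above every vector sample.

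Pcdh1 (chromosome 18, 38196694 to 38209762), an adhesion protein of airway epithelium, was at 102, 94.4 and 73.3 CPM in 393P_vector samples and 117, 130 and 123 CPM in 393P_ZEB1 samples. The lowest vector value was that of replicate 3. The rise of 0.46 ± 0.14 on the log2 scale passed the test (adjusted p = 0.0323), but it was below the median of the other chromosome 18 genes, and relative to that median Pcdh1 was at -0.21 (adjusted p = 0.202). The call was also lost without 393P_vector replicate 2 or without any of the 3 ZEB1 samples, where the adjusted p lay between 0.0510 and 0.108.

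Pcdh19, an X-linked delta protocadherin known from epilepsy, went the other way from Pcdh7 and Pcdh18. It was at 43.9, 41.2 and 43.5 CPM in 393P_vector samples and 38.0, 29.8 and 34.7 CPM in 393P_ZEB1 samples. The groups did not overlap, as was so for 26.5% of all tested genes in this direction, and the log2 value of -0.33 ± 0.12 missed the threshold (adjusted p = 0.0704). Without 393P_vector replicate 3 it was -0.32 with an adjusted p of 0.0322, in a fit where 26.8% of all genes were lower. The call also depended on the tool, as limma called Pcdh19 lower with all samples kept. Pcdh15, whose protein forms the tip link of inner ear hair cells together with cadherin 23, was at 0.565, 0.238 and 0.518 against 0.710, 0.414 and 0.606 CPM. Its groups overlapped (0.38 ± 0.37, adjusted p = 0.461). The 4 members that were not tested, Pcdh8, Pcdh11x, Pcdh12 (known from endothelium) and Pcdh20, had between 1 and 17 counts per library, and a difference in them was not detectable at this depth.

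**Figure D1:**
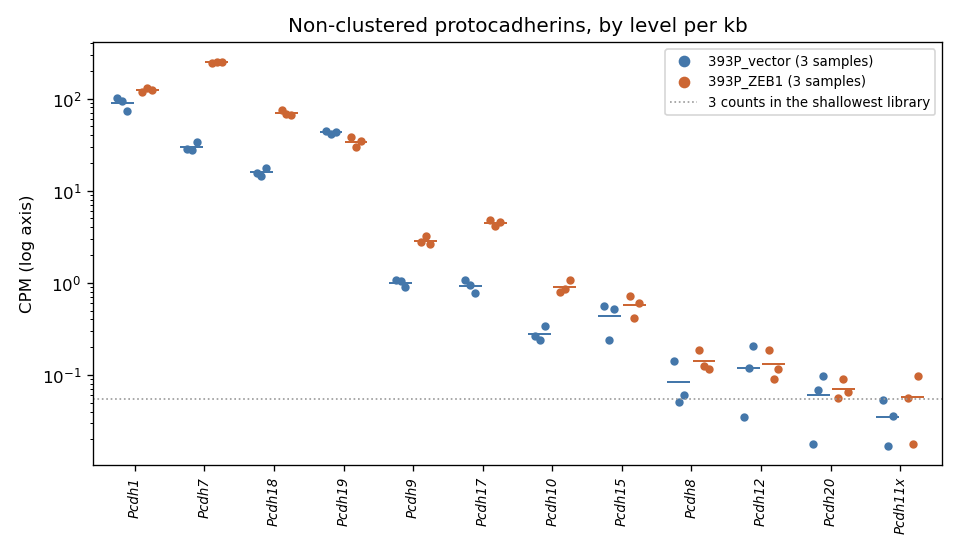
CPM of the 12 non-clustered protocadherins (log axis) in each of the 3 393P_vector and 3 393P_ZEB1 samples (points), with group means as bars and the genes in order of their level per kb. Pcdh7, Pcdh18, Pcdh9, Pcdh17 and Pcdh10 had all ZEB1 samples above all vector samples, as did Pcdh1 by less, and the 4 genes on the right had 1 to 17 counts per library.

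In order of level per kb in 393P_vector cells, Pcdh1 led with 23.0 ± 3.8 CPM per kb, followed by Pcdh19 (4.17 ± 0.14), Pcdh7 (3.30 ± 0.37) and Pcdh18 (3.06 ± 0.33). Of these neighbours, Pcdh7 and Pcdh18 did not differ beyond their spread. In 393P_ZEB1 cells Pcdh7 (27.2 ± 0.41) and Pcdh18 (13.5 ± 1.0) had passed Pcdh19 (3.32 ± 0.40), and Pcdh1 stood at 31.7 ± 1.7 CPM per kb (SD, n = 3 for each).

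The beta cluster changed gene by gene. Of its 22 single-exon genes 10 were tested, 7 were higher and 3 did not pass the test. The 7 of 10 are 70.0% of the beta genes tested, beside 64.4% of the other chromosome 18 genes and 18.3% of all genes. None was lower by edgeR, DESeq2 or limma, also at an unadjusted p below 0.05. The median log2 fold change of the 10 was 1.78, and the 7 genes, picked by their call, had values from 1.49 to 2.94. Pcdhb11 and Pcdhb15 are part of these counts, of the share and of the median, though they entered the test only through 393P_ZEB1 samples. The 70.0% is therefore not read as above the share of the other chromosome 18 genes. Summed over all 22 genes, tested or not, beta reads came to 9.96, 8.97 and 12.4 CPM in 393P_vector samples and 42.0, 33.2 and 35.2 CPM in 393P_ZEB1 samples. In each vector sample the sum was below that in each ZEB1 sample.

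Pcdhb17 had the highest level per kb and was at 3.04, 2.77 and 3.97 CPM in 393P_vector samples and 16.8, 10.8 and 11.5 CPM in 393P_ZEB1 samples (log2 fold change 1.99 ± 0.23, adjusted p = 0.000405). Pcdhb22, the last gene of the cluster, was at 1.64, 1.85 and 1.90 CPM and rose to 10.1, 10.1 and 10.1 CPM (2.48 ± 0.15, adjusted p = 1.01e-05). The ZEB1 samples thus agreed closely for Pcdhb22 and less so for Pcdhb17, whose replicate 1 was the highest. Pcdhb19 had the largest change of the cluster, from 0.866, 0.663 and 0.939 CPM to 7.70, 5.29 and 6.13 CPM, a 7.70-fold rise (2.94 ± 0.23, adjusted p = 4.46e-05).

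Pcdhb20 was at 0.495, 0.442 and 0.855 CPM against 1.70, 1.49 and 2.18 CPM (1.56 ± 0.31, adjusted p = 0.00568). Pcdhb16 was at 0.353, 0.306 and 0.433 CPM against 1.35, 0.972 and 0.786 CPM (1.49 ± 0.29, adjusted p = 0.00559). The groups of both genes stayed apart. Pcdhb11 and Pcdhb15, the others among the 7, had 5, 6 and 9 against 16, 44 and 31 counts, and 3, 7 and 3 against 26, 17 and 11 counts. They entered the test only through their counts in 393P_ZEB1 samples, so their calls (2.39 ± 0.44 and 2.24 ± 0.57) are no support for a rise of the cluster.

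Not every expressed beta gene took part. Pcdhb18 lies between Pcdhb17 and Pcdhb19, and it was at 1.41, 1.38 and 2.23 CPM in 393P_vector samples and 1.29, 1.39 and 1.62 CPM in 393P_ZEB1 samples. The groups overlapped (-0.23 ± 0.25, adjusted p = 0.505), while both its neighbours were several-fold higher. Pcdhb21, next to Pcdhb22, was at 0.300, 0.170 and 0.518 against 0.243, 0.324 and 0.311 CPM (-0.20 ± 0.42, adjusted p = 0.739). Pcdhb5 had a value of 0.66 ± 0.32 with overlapping groups (adjusted p = 0.139). Pcdhb5, Pcdhb11, Pcdhb15, Pcdhb18 and Pcdhb21 were named after their values were seen. The other 12 beta genes had between 0 and 15 counts per library, too few for a test. Beta genes are close paralogs, and how reads matching several of them were treated is not given in the sources used here, so the split of reads between neighbouring genes is uncertain.

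**Figure D2:**
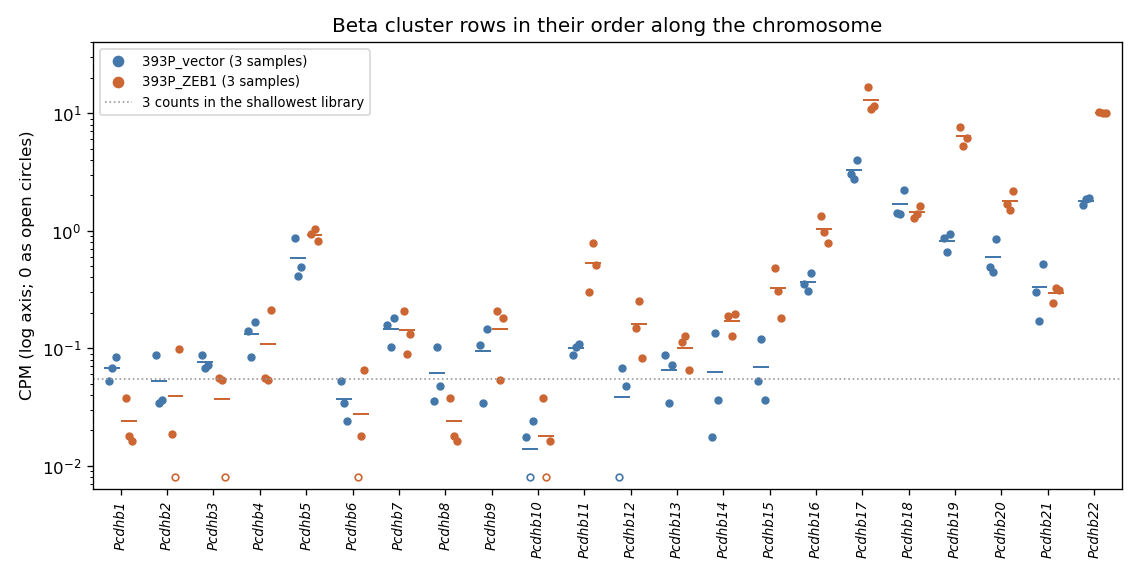
CPM of the 22 beta genes (log axis, counts of 0 as open circles at the bottom) in the 3 393P_vector and 3 393P_ZEB1 samples, with bars at group means and genes in their order along the chromosome. From Pcdhb15 to Pcdhb22 the ZEB1 samples lay above the vector samples, except for Pcdhb18 and Pcdhb21, where the groups overlapped.

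As deposited, the gamma cluster looked uniform: 22 of the 22 rows were higher in 393P_ZEB1 cells, by 0.59 to 0.64 on the log2 scale. The shared reads alone were at 82.6, 79.7 and 72.9 CPM in 393P_vector samples and 116, 119 and 123 CPM in 393P_ZEB1 samples. This was a rise of 0.62 ± 0.10 (adjusted p = 0.00188), and the groups did not overlap. It was of the size of the chromosome 18 shift, and relative to that median the shared reads were at -0.052 (adjusted p = 0.635). Shared reads measure total gamma RNA, since each gamma transcript carries the constant exons a single time. In each library the reads above the shared level, summed per kb of each row's own exon, came to between 1.07 and 1.15 times the shared reads per kb, so the isoform exons together accounted for about as many transcripts as the constant exons.

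Pcdhgc3, a C-type isoform also known outside the nervous system, held most gamma reads. Above the shared reads it was at 76.3, 75.4 and 63.2 CPM in 393P_vector samples and 106, 117 and 113 CPM in 393P_ZEB1 samples (0.65 ± 0.11, adjusted p = 0.00291). Its share of the gamma reads above the shared level was 71.0%, 71.7% and 66.2% in 393P_vector samples and 69.5%, 70.1% and 70.5% in 393P_ZEB1 samples. These shares overlapped, so Pcdhgc3 rose along with the cluster and its part in it was not seen to differ. Relative to the chromosome 18 median it was at -0.016 (adjusted p = 0.905).

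The less abundant gamma isoforms did not move together. Of the 22 rows, 17 could be tested above the shared reads, 9 of them were higher, 3 lower and 5 did not pass the test. The 9 are 52.9% and the 3 are 17.6% of those tested, beside 18.4% and 19.0% of all genes in the same fit. Of the other chromosome 18 genes, 64.4% were higher and 7.47% lower, as given above. Pcdhga3 and Pcdhga12 had 4, 18 and 33 and 7, 4 and 9 counts in 393P_vector samples. They entered this test only through their counts in 393P_ZEB1 samples. Pcdhgb4 had 3, 7 and 2 counts in 393P_ZEB1 samples and entered it only through 393P_vector samples. The calls of Pcdhga3, Pcdhga12 and Pcdhgb4 are therefore a description. Isoforms outside the C-types and outside Pcdhgb1, Pcdhga5, Pcdhgb6 and Pcdhga10 were named after their values were seen. Pcdhga3 had the largest rise, from 0.0707, 0.306 and 0.397 CPM to 2.15, 3.11 and 2.56 CPM (3.28 ± 0.46, adjusted p = 0.00109). Pcdhga4, 2 isoforms further along, was at 0.689, 0.391 and 0.710 CPM and rose to 2.34, 2.30 and 2.31 CPM (1.95 ± 0.26, adjusted p = 0.000772). For both, all ZEB1 samples were more than 3 times as high as the highest vector sample.

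Pcdhga5 went down over the same stretch, from 1.27, 1.43 and 2.00 CPM in 393P_vector samples to 0.374, 0.450 and 0.377 CPM in 393P_ZEB1 samples. It fell by 1.96 on the log2 scale (SE 0.26, adjusted p = 0.000827), while its row as deposited was called higher (0.59). Pcdhga11 was at 1.45, 1.53 and 1.40 CPM against 0.729, 0.486 and 0.557 CPM and fell by 1.30 (SE 0.23, adjusted p = 0.00309). Both isoforms were clearly separated between the groups. Pcdhgb4 also fell, by 1.65 (SE 0.49, adjusted p = 0.0329), from a mean of 0.225 to 0.0716 CPM, the latter near 3 counts. Its call was lost with the replicate number as a block (adjusted p = 0.0715) and in DESeq2's test (adjusted p = 0.0604).

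The C-types Pcdhgc5 and Pcdhgc4 rose as well. Pcdhgc5 was at 2.21, 1.85 and 1.81 CPM in 393P_vector samples and 4.64, 5.76 and 5.36 CPM in 393P_ZEB1 samples (1.43 ± 0.17, adjusted p = 0.000500). Pcdhgc4, which is needed for the survival of interneurons, was at 1.41, 1.44 and 1.17 against 2.45, 2.92 and 2.41 CPM (0.96 ± 0.19, adjusted p = 0.00567). Relative to the chromosome 18 median Pcdhgc5 was still higher (0.76, adjusted p = 0.00516), and Pcdhgc4 was not called (0.29, adjusted p = 0.192). No sample of either group reached into the other group for these isoforms.

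Pcdhga10 and Pcdhgb6 followed Pcdhgc3 in level per kb. Pcdhgb6 rose by 0.75 ± 0.13 (adjusted p = 0.00283) from a mean of 7.26 to 12.1 CPM. Pcdhga10 was at a mean of 9.83 ± 1.06 CPM in 393P_vector cells and 13.9 ± 0.22 CPM in 393P_ZEB1 cells (SD, n = 3; 0.51 ± 0.13, adjusted p = 0.0194), and without any one of 5 of the 6 samples its adjusted p lay between 0.0532 and 0.0727. Relative to the chromosome 18 median neither was called (Pcdhgb6 0.078, adjusted p = 0.589, and Pcdhga10 -0.16, adjusted p = 0.303). Pcdhgb8 (1.31 ± 0.30) and Pcdhga12 (2.00 ± 0.35) rose from means of 0.255 and 0.100 CPM, and on that scale Pcdhgb8 was not called (0.65, adjusted p = 0.0806). Pcdhgb1, next in level per kb in 393P_vector cells, was at 0.36 ± 0.17 (adjusted p = 0.127).

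Within the cluster, shares of reads compare the isoforms with each other in the same library and do not depend on the scaling of libraries. Pcdhga3 went from 0.0657%, 0.291% and 0.416% of gamma reads above the shared level to 1.41%, 1.87% and 1.59%. Pcdhga5 went from 1.18%, 1.36% and 2.09% to 0.245%, 0.270% and 0.234%. In 393P_vector samples Pcdhga5 was thus the more abundant of the pair in each library, and in 393P_ZEB1 samples Pcdhga3 was. Pcdhga11 went from 1.35%, 1.45% and 1.46% to 0.478%, 0.291% and 0.346%, and Pcdhgc5 from 2.05%, 1.76% and 1.89% to 3.04%, 3.45% and 3.33%. An exact permutation test of 3 samples against 3 cannot go below p = 0.1, so the shares are given as values.

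With zero set at the chromosome 18 median instead, 4 gamma isoforms were higher and 4 lower above the shared reads, where 6.79% of all genes were then higher and 65.5% lower. The 4 higher were Pcdhga3, Pcdhga4, Pcdhga12 and Pcdhgc5. Pcdhgb2, at -0.58 ± 0.25 in the comparison with all genes (adjusted p = 0.113), was lower on that scale (-1.24, adjusted p = 0.00330).

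**Figure D3:**
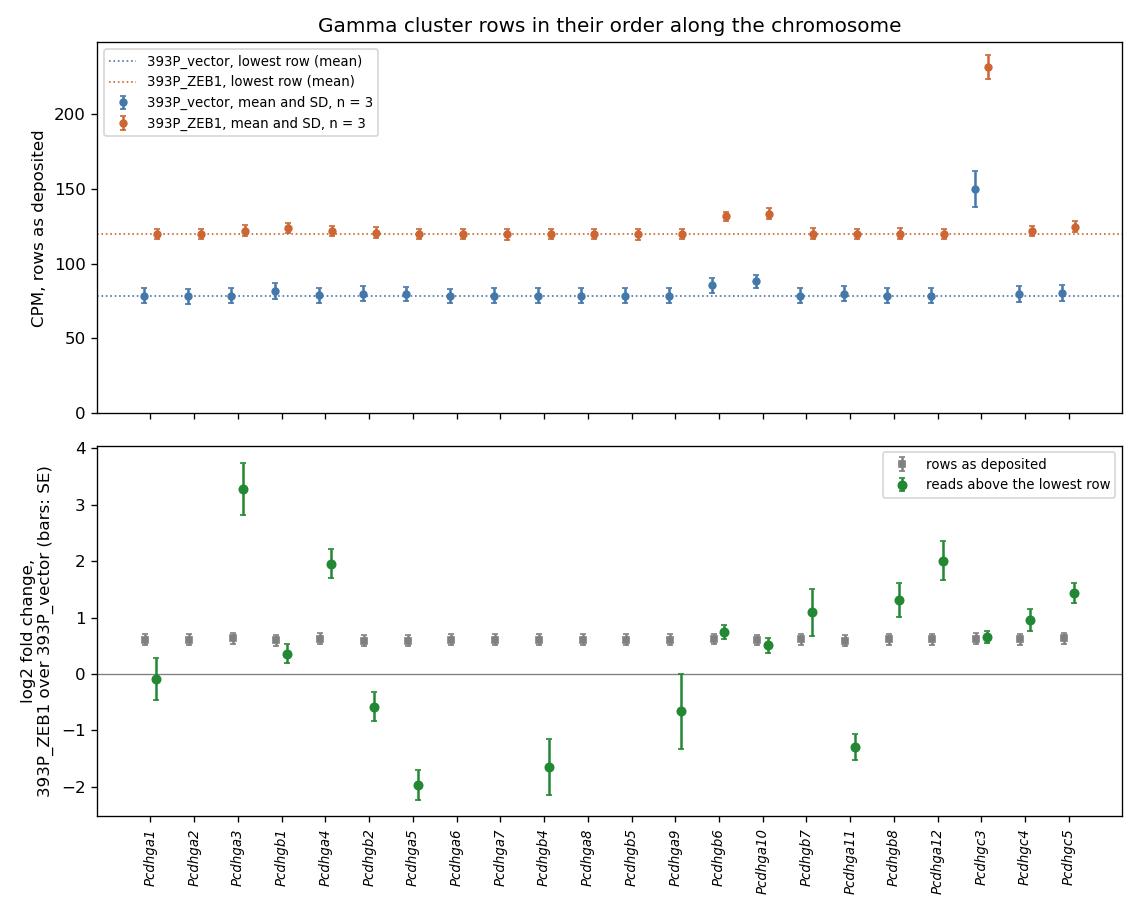
The 22 gamma rows in their order along the chromosome. The upper panel gives CPM as deposited (mean and SD of 3 samples per group, dotted lines at the lowest row), where nearly all rows sit on the line of their group, and the lower panel gives log2 fold changes with SE for rows as deposited (grey, 0.59 to 0.64) and for the 17 tested rows after the shared reads were taken off (green, -1.96 to 3.28).

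Alpha rows were scarce. As deposited, 13 of the 14 rows that carry the alpha constant exons were lower in 393P_ZEB1 cells and the other, Pcdha11, was not called (-0.82 ± 0.46, adjusted p = 0.202). The C-types Pcdhac1 and Pcdhac2 fell by 1.72 and 1.73 on the log2 scale (SE 0.51 for each, adjusted p = 0.0325 and 0.0305), and Pcdha1 by 1.80 (adjusted p = 0.0327). All of this rested on the reads of the constant exons, which numbered 119, 112 and 47 in 393P_vector samples and 18, 37 and 19 in 393P_ZEB1 samples, or 2.10, 1.90 and 0.566 against 0.336, 0.666 and 0.311 CPM. The vector value of replicate 3 lay within the range of the ZEB1 samples, so the groups overlapped in 14 of the 14 rows. The shared alpha reads fell by 1.77 (SE 0.54, adjusted p = 0.0352), and the call was lost without 393P_vector replicate 1 or 2, or 393P_ZEB1 replicate 1 or 3, with adjusted p between 0.0782 and 0.130. Over all fits that left out 1 sample, the log2 value ranged from -2.21 to -1.47 and the adjusted p from 0.000204 to 0.130. Relative to the chromosome 18 median they were at -2.44 (adjusted p = 0.00493).

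Above the shared alpha reads only Pcdha11 had enough counts for a test. It was at 0.442, 0.527 and 0.181 CPM in 393P_vector samples and 0.523, 0.756 and 0.622 CPM in 393P_ZEB1 samples, with overlapping groups (0.77 ± 0.40, adjusted p = 0.172). It made up between 34.1% and 70.4% of alpha reads above the shared level. Unlike in the gamma cluster, the ratio of isoform reads to shared reads per kb was not stable, from 0.422 to 1.10 in 393P_vector samples and from 2.02 to 3.63 in 393P_ZEB1 samples. The fall of the shared alpha reads was therefore not matched by a fall in the reads of the isoform exons, which numbered 42, 47 and 44 counts against 55, 63 and 54.

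The read-through row Pcdha4-g joins the variable exon of Pcdha4 (2410 bases) to gamma exons 2 and 3 and to the first 298 bases of gamma exon 4. Its counts of 27.4, 27.0 and 19.6 CPM against 31.2, 36.7 and 41.6 CPM (0.57 ± 0.17, adjusted p = 0.0356) thus hold reads of the gamma constant exons, and they were more than 10 times those of the row Pcdha4 itself. The row was counted with the alpha cluster by its symbol. Its call was lost with the replicate number as a block (adjusted p = 0.0733) and without 393P_ZEB1 replicate 2 or 3 (adjusted p = 0.0972 and 0.124), and relative to the chromosome 18 median it was at -0.10.

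Beside the clusters, 37 genes within 1 Mb that are not protocadherins were tested, of which 24 were higher and 1 was lower, with a median of 0.71. The 24 are 64.9%, close to the 64.4% of all other chromosome 18 genes. The largest changes among them were those of Arap3 (3.59), Fgf1 (2.69), E230025N22Rik (2.29) and Spry4 (2.24). Inside the span lie Taf7 and Slc25a2, both between the beta and gamma genes. Taf7, a subunit of the general transcription factor TFIID, was at a mean of 5.88 CPM in 393P_vector cells and 6.44 CPM in 393P_ZEB1 cells (0.13, adjusted p = 0.541), and Slc25a2 was at 0.61 (adjusted p = 0.522) with a few reads per library. Neither of them passed the test.

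Relative to the chromosome 18 median, the clustered members as deposited had a median of -0.061, with 7 higher and 15 lower of the 47 tested, where 6.72% of all genes tested were then higher and 65.9% lower. The 7 were the beta genes already named as higher. The 15 were the 14 alpha rows with the alpha constant exons and Pcdhb18 (-0.90, adjusted p = 0.0132). Non-clustered members had a median of 0.92 on that scale. Most of them lie on other chromosomes, where the scale takes off a shift that was measured on chromosome 18. Pcdh7, Pcdh9, Pcdh10, Pcdh17 and Pcdh18 are such members and were higher also on that scale. The X-linked Pcdh19 was lower there (adjusted p = 0.000304), as were 65.9% of all genes. Its call comes with the offset and is not read as a fall.

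**Figure D4:**
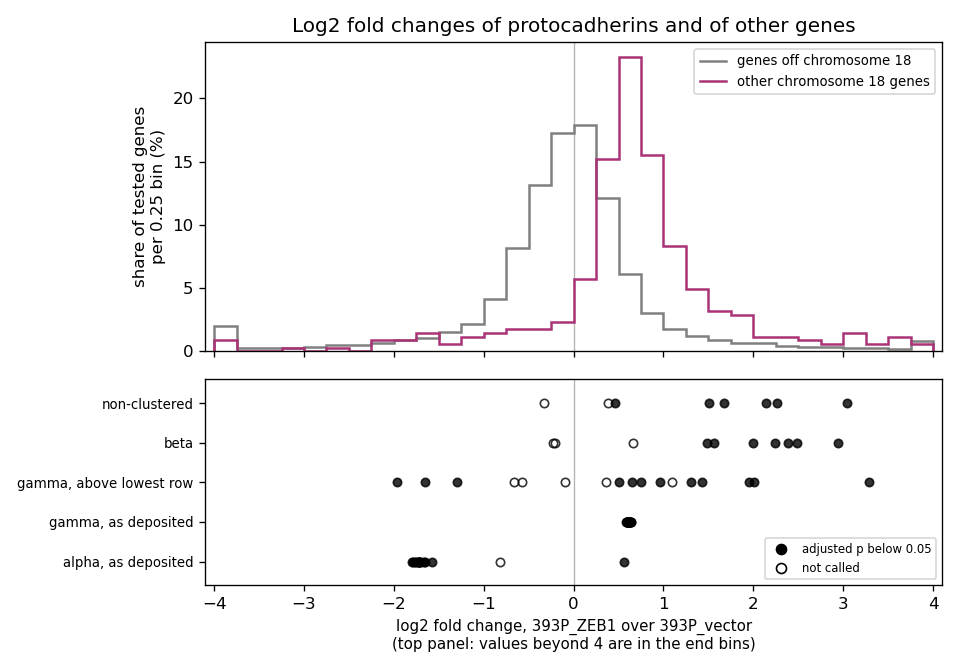
Log2 fold changes of 393P_ZEB1 over 393P_vector. The upper panel gives the share of tested genes per bin for genes off chromosome 18 and for the 348 other genes of chromosome 18, whose curve is shifted to a median of 0.67, and the lower panel gives each tested protocadherin (filled where the adjusted p is below 0.05), with gamma rows as deposited close to that median and gamma rows above the lowest row on both sides of it.

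Genes that work with protocadherins were described from lists. Of 17 genes for the chromatin of the clusters, such as CTCF, cohesin and DNA methyltransferases, 3 were higher, 3 lower and 11 not called, close to the 18.3% and 19.3% of all genes. Dnmt3b, a de novo DNA methyltransferase that methylates clustered protocadherin promoters, fell by 2.00 (adjusted p = 0.000340), and Dnmt3a, the other such enzyme, rose by 1.01 (adjusted p = 0.00547). Smchd1, a repressor of the clusters, fell by 0.61 (adjusted p = 0.00610), and Wiz fell by 0.59 (adjusted p = 0.0101). Ctcf, whose protein binds isoform promoters, was at a mean of 127 and 137 CPM (0.11, adjusted p = 0.385).

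Of 18 tested genes for intracellular partners, 2 were higher and 5 lower, or 11.1% and 27.8%, beside 18.3% and 19.3% of all genes. Ret, the receptor tyrosine kinase that associates with alpha and gamma protocadherins, fell by 6.18, from a mean of 35.4 to 0.490 CPM (adjusted p = 5.29e-06). Fyn rose by 1.61 (adjusted p = 1.63e-05). Cyfip2 and Wasf1, subunits of the WAVE complex, fell by 1.12 and 0.65 (adjusted p = 0.0370 and 0.0442). Cyfip2, with 17, 24 and 25 against 11, 6 and 9 counts, entered the test only through 393P_vector samples, so its call is a description. Both genes were scarce, at means of 0.336 and 3.64 CPM in 393P_vector cells. Their more abundant paralogs, named after their values were seen, did not fall. Cyfip1 rose by 0.31 from a mean of 230 CPM (adjusted p = 0.0450). Wasf2, at a mean of 175 CPM, was not called (0.39, adjusted p = 0.0564), nor were Nckap1, Abi1, Abi2 and Brk1. Of 9 genes of the proteases that release protocadherin fragments, Adam10 (0.60) and Ncstn (0.41) were higher, Aph1b (-0.58) was lower and 6 were not called, so 22.2% were higher and 11.1% lower.

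Among 13 tested other cadherins of non-classical type, 3 were higher and 4 lower, 23.1% and 30.8%. Celsr2 fell by 3.18, Fat2 by 2.59, Celsr1 by 2.31 and Clstn3 by 2.17 on the log2 scale. Clstn3, with 37, 45 and 44 against 13, 5 and 6 counts, entered the test only through 393P_vector samples, so its call is a description. Of 5 tested tip-link genes, 2 were lower, where 19.3% of all genes were, Tmie (-3.17) and Myo7a (-1.34), and Cdh23, the partner of Pcdh15, was not called (-0.84, adjusted p = 0.0995). The medians of these lists lay between -0.84 and 0.11.

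Markers of other cells that express protocadherins were read alongside. Among 12 neuron and glia markers there were 6 with enough counts for a test, 1 was higher (Snap25, 5.82) and 2 were lower, and their summed level was 48.1 to 52.8 CPM in 393P_vector samples and 26.7 to 30.0 CPM in 393P_ZEB1 samples. Of the 12, Rbfox3, Gfap, Olig2 and Sox10 had means at or below 0.159 CPM in both groups. They do not stand for the list, whose summed level lay with its other members. Summed levels of 7 endothelial markers were 2.93 to 3.28 against 0.900 to 1.55 CPM, and of 7 immune markers 2.79 to 4.94 against 1.78 to 2.19 CPM. The part of such cells in the protocadherin values was not tested.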

How the data were processed

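The 6 samples of 393P transfectants (3 393P_vector, 3 393P_ZEB1) were SOLiD libraries of total RNA. Each deposited table gives, for 24214 RefSeq gene rows, the raw read count and the RPKM that the authors made from it by exon length and depth. Only the count was analysed, and RPKM served to check lengths and totals. The aligner, the counter and the treatment of reads matching several rows are not given in the sources used here. Coordinates match GRCm38.

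Counts were fitted by edgeR 4.0.16 under R 4.3.3 (filterByExpr, minimum count 10, TMM, robust quasi-likelihood fit on condition), with Benjamini-Hochberg adjustment over the 13892 genes tested (threshold 0.05). The common biological variation (BCV) came to 0.184, and TMM factors lay between 0.979 and 1.05. CPM used TMM-normalized totals. DESeq2 1.42.0 and limma 3.58.1 served as alternatives. Tables and figures used Python 3.11.15, NumPy 2.4.6, pandas 2.3.3 and matplotlib 3.10.9. The procedure was tested on simulated counts. Members, lists and settings were chosen with earlier results of these data known. Named were all non-clustered members, the C-types, the 4 rows per cluster with the highest CPM per kb and those with the extreme called changes, the genes inside the cluster span and up to 4 others within 1 Mb, and up to 4 called genes per list with the largest changes. Others are named as such.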

Additional observations from a re-analysis of the deposited data

How the results depend on the processing

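With DESeq2's size factors or its Wald test no named member changed its call, apart from Pcdhgb4 above the shared reads, which DESeq2 did not call. Taking shared reads a single time gave 23 members higher and 3 lower, of which 17 higher and 3 lower were clustered, with a clustered median of 0.77. A test against a fold change of 1.5 left 12 higher and 0 lower (7 and 0 clustered). The share of all genes called in that fit was not counted, so these numbers are a description. The gamma rows were all near 1.5-fold, and the alpha rows, though further from 1, had SEs near 0.5 on the log2 scale. With zero at the chromosome 18 median, 12 members were higher, 7 of them clustered, 1 non-clustered member (Pcdh19) was lower, and the medians were -0.061 (clustered) and 0.92 (non-clustered). For members on other chromosomes, such as the X-linked Pcdh19, that offset was not measured on their own chromosome. Limma with voom and sample weights called 1 non-clustered member lower and gave a clustered median of 0.56. The non-clustered median was 0.79 by DESeq2 and 0.73 without a filter on low counts, since more scarce members entered it. On the chromosome 18 scale 4 gamma isoforms were higher above the shared reads, and these values changed sign there: Pcdh15 (-0.29), Pcdha4-g (-0.10), Pcdhgb1 (-0.069), Pcdhga5 (-0.082), Pcdhgb6 (-0.047), Pcdhga10 (-0.070), Pcdhgc3 (-0.041), Pcdhgc4 (-0.052), Pcdhgc5 (-0.032), Pcdh1 (-0.21) and the gamma shared reads (-0.052), and above the shared reads Pcdhgb1 (-0.31), Pcdhga10 (-0.16) and Pcdhgc3 (-0.016). Pcdhga1 above the shared reads was 0.15 without 393P_ZEB1 replicate 1.

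Leaving out each sample in turn gave 34 to 37 members higher and 0 to 15 lower, of which 29 to 31 and 0 to 14 were clustered and 5 to 6 and 0 to 1 non-clustered. The medians ranged from 0.56 to 0.65 (clustered) and from 1.43 to 1.66 (non-clustered), and gamma isoforms above the shared reads from 8 to 10 higher and from 2 to 3 lower. Of these fits, the share of all genes called was counted only without 393P_vector replicate 3, so the other counts are a description. The alpha rows gave the low counts. Without 393P_vector replicate 1 or 2, or 393P_ZEB1 replicate 1 or 3, their calls were lost, and the shared alpha reads had an adjusted p between 0.0782 and 0.130. The fit with a block for the replicate number had 35 members higher and 13 lower, and the share of all genes called was not counted. In it Pcdha4-g (adjusted p = 0.0733) and Pcdhgb4 above the shared reads (0.0715) lost their calls. Deviations of samples with equal numbers correlated with r of 0.30, -0.23 and -0.04, so the numbers were not taken to pair the samples. Depth limits the 16 untested members, and the excess over shared reads of a few counts in scarce isoforms cannot be read as expression.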
